A study of Mus musculus with 3 samples.

Results

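The thermogenic and fatty acid oxidation genes were read in aortas labelled Plk1(+/-) against a wild-type pool. The set holds 33 genes, 14 of brown fat heat production and its regulators and 19 of mitochondrial fatty acid oxidation. Members were taken by gene name, with no measured value used, and every non-control probe whose name or updated name was on the list was kept. They had 51 probes, of 41174 probes and 27670 gene names on the array. Each of 3 two-colour arrays, all on 1 slide, held Cy5-labelled RNA of 1 aorta labelled Plk1(+/-) and Cy3-labelled RNA of the same pool of 3 wild-type aortas. The animals of both groups were 3 to 5 months old and of strain 129/CD1. No array had the dyes exchanged, so dye and genotype cannot be told apart, and the pool counts as 1 control sample whose own spread is not measured. The labels name tissue and genotype but not how the allele was made, and their growth protocol describes embryonic stem cells; the tissue label was followed.

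In brown fat, and in beige cells within white fat, UCP1 lets protons back across the inner mitochondrial membrane, so that fuel oxidation gives heat in place of ATP. The fuel is largely fatty acid, which is activated to acyl-CoA, carried into mitochondria by the carnitine shuttle and shortened by repeated rounds of dehydrogenation, hydration, dehydrogenation and thiolysis. Electrons from the first dehydrogenation pass through the electron transfer flavoprotein to the respiratory chain. The thoracic aorta lies in perivascular fat with brown fat features, while heart and skeletal muscle also carry much of the oxidation machinery.

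Ratios are log2 of Cy5 over Cy3, so a value above 0 is a higher signal in the labelled sample, and errors are SDs over arrays. Between 66.0% and 69.0% of probe spots were well above background in Cy3 and between 77.0% and 80.8% in Cy5. Precision is limited by the small number of arrays. Plk1 itself averaged 0.10 ± 0.28 (SD, n = 3, limma adjusted p = 0.71), from readings of -0.06, -0.08 and 0.42 for samples 1, 2 and 3. Whether its probe lies in the altered part of the gene is not given in the sources used here, so the reading did not settle the genotype labels. All 10 smooth muscle and all 10 endothelial marker genes were detected, that is well above background on every array in Cy3 and Cy5, as were all 12 white fat and all 14 skeletal muscle markers, 9 of 10 cardiac markers, all 10 lymphocyte markers and 4 of 5 liver markers on the array. These lists did not read alike in the 3 samples. Cardiac probes had medians of -1.76, 0.15 and -1.79, and liver probes of -1.56, 1.32 and -1.11, so sample 2 stood apart in both. Lymphocyte probes had medians of 0.11, 1.42 and 1.82, lowest in sample 1. Skeletal muscle probes had medians of -0.75, -0.94 and -2.95, lowest in sample 3. In such tissue RNA, fewer cells of a type and less RNA per cell cannot be told apart.

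Much of the heat and fatty acid oxidation set was too bright to be compared. A spot was called saturated by the deposited scanner files, and 17 of the 51 member probes (33.3%) had a saturated spot in some dye on some array, against 1.45% of all probes (596 of 41174). The share was 51.9% of the 27 fatty acid oxidation probes and 12.5% of the 24 thermogenic probes. Among white fat markers it was 47.6% of 21 probes. For 14 member genes no other probe was on the array: Ucp1, Cidea, Fabp3, Cpt2, Acadvl, Acadl, Acadm, Hadhb, Hadh, Echs1, Acaa2, Ech1, Etfa and Etfb. The aorta samples and the pool thus both gave strong signal for these genes, and how they differ was not measured.

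**Figure D1:**
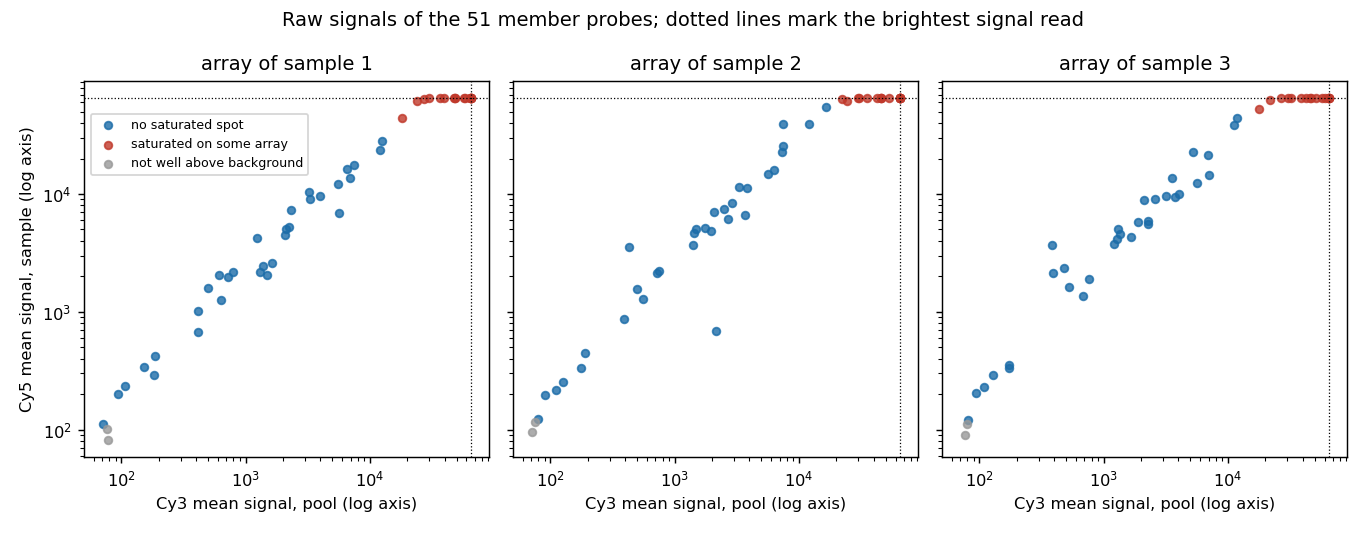
Mean Cy5 signal of the labelled sample against mean Cy3 signal of the pool, in scanner units on log axes, for the 51 member probes on each of the 3 arrays; each point is a probe, coloured by whether it was saturated on some array, and dotted lines mark the brightest signal read. The 17 saturated probes lie along or near the upper limit, and the fitted probes span the range below it; 1 point of sample 2 far below the rest, at a Cy3 signal of 2158, is Prdm16.

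Ucp1, which encodes the uncoupling protein of brown fat, was at the limit in every reading. Its Cy3 signal was 65200 and its Cy5 signal 65220 on each of the 3 arrays, the brightest values either dye gave. Acadvl (very-long-chain acyl-CoA dehydrogenase) and Hadhb (the beta subunit of the mitochondrial trifunctional protein) gave the same signals on every array, and Acaa2 (a thiolase) was also saturated in both dyes throughout. After normalization, the 42 probes of the array that were saturated in both dyes on all arrays took nearly one value per array: between -1.45 and -1.26 in sample 1, between -1.44 and -1.43 in sample 2 and between -1.49 and -1.31 in sample 3. Ucp1 read -1.45, -1.43 and -1.49. A reading of that size is what a probe at both limits received here whatever its RNA level, so it gives no fold for Ucp1.

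Another 10 saturated probes reached the limit in Cy5 on every array, 3 of them in Cy3 on some array as well. Those 3 were the probe of Cidea, a lipid droplet protein, that of Etfb and the brightest probe of Acsl1. The other 7 kept a readable pool signal. Acadm, the medium-chain dehydrogenase, had Cy3 signals of 56990, 53370 and 50960, and Fabp3, a fatty acid carrier of heart and brown fat, had 47220, 45580 and 38740. Cpt2, the inner membrane carnitine palmitoyltransferase, had 48400, 46040 and 47020, and Echs1, a short-chain enoyl-CoA hydratase, had 36690, 35710 and 32270. Ech1, a dienoyl-CoA isomerase, was between 29890 and 30500 in Cy3, Etfa between 39650 and 42870, and the bright probe of Etfdh between 45910 and 48880. With Cy5 cut off, the sample's signal is known only as a lower bound, and these probes have no measured ratio either.

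Only 3 probes were saturated on some arrays in Cy5 alone, and their remaining arrays read between -0.23 and 0.08. Acadl, the long-chain dehydrogenase, read -0.07 and -0.07 in samples 1 and 2, at Cy5 signals of 61490 and 61920. Its saturated spot, in sample 3, was at 62950. Hadh, the short-chain 3-hydroxyacyl-CoA dehydrogenase, read -0.23 in sample 1, at a Cy5 signal of 63540. The bright probe of Cpt1b, the muscle form of the outer membrane carnitine palmitoyltransferase, read -0.15 in sample 1 and 0.08 in sample 3. These are values of 1 or 2 arrays with no test. For Acadl and Hadh the Cy5 signals stood close to the limit of 65220, so their ratios may be held down by it.

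The remaining 34 member probes lacked a saturated spot. Of these, 1 probe of Zic1 and 1 of Gyk were too dim to be kept, which left 32 fitted probes of 19 genes. No member probe passed limma's test after Benjamini-Hochberg adjustment, and none of the 31901 probes tested over the array did (0%), the lowest adjusted p being 0.177. At an unadjusted limma p under 0.05, 3 member probes were higher and 0 lower. Over all probes tested, 8.95% were higher and 8.91% lower at that p, so the members' 9.38% in both directions together was below the 17.9% of the array. On all 3 arrays, 5 member probes were above 0 (25.6% of all probes tested were) and 3 were below 0 (18.7% of all). The set was not called in either direction. Median centring in place of the loess fit gave 13 called member probes, 12 higher and 1 lower, but it also called 41.2% of all probes and moved the median of all probes from 0.03 to 0.18.

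**Figure D2:**
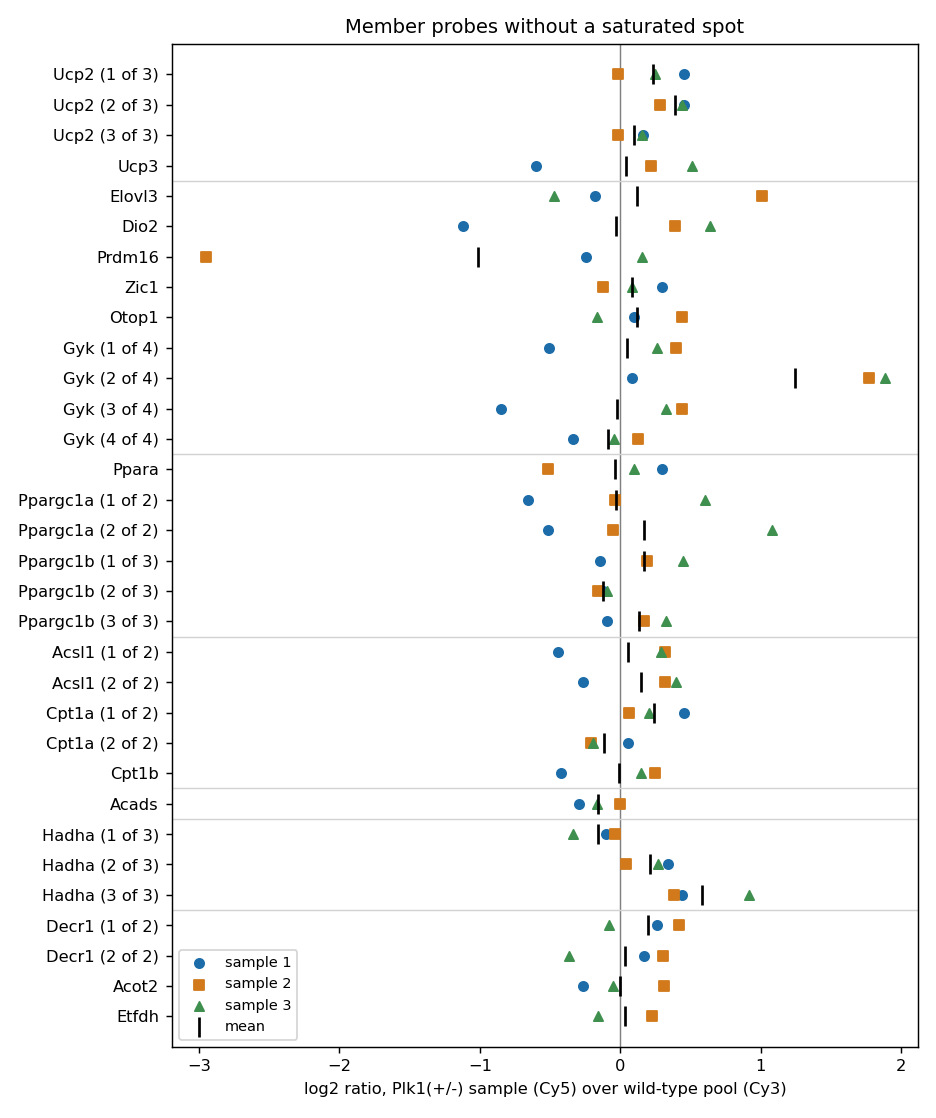
Log2 ratio of each labelled sample over the wild-type pool (x axis) for the 32 fitted member probes (y axis, grouped by role, with the probe's number where a gene has several); coloured points are the 3 samples and the black bar is their mean. Most probes have samples on both sides of 0; Prdm16 in sample 2 at -2.95 and the second Gyk probe in samples 2 and 3 lie farthest out.

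Among the uncoupling proteins other than Ucp1, Ucp2 was the more even over the samples. UCP2 is a widely expressed relative of UCP1 that is abundant in immune cells, and it had 3 probes on chromosome 7 (build mm7). The probe farthest downstream, at chr7:96547222-96547281, read 0.46, 0.28 and 0.44, a mean of 0.39 ± 0.10 (SD, n = 3, limma unadjusted p = 0.00453, adjusted p = 0.212). All 3 samples were above the pool, but its Cy3 signal, 90.9 to 94.0, was well above background on 1 of 3 arrays. Its mean moved with the processing, from 0.15 with median centring to 0.66 with the Agilent processed log ratio. The brightest Ucp2 probe, at chr7:96545541-96545600, read 0.45, -0.02 and 0.25, and the third read 0.16, -0.02 and 0.15. Sample 2 was thus the lowest on all 3 probes, and only the dim one stayed above 0 in every sample. Ucp3, the muscle and brown fat paralogue next to Ucp2, read -0.60, 0.22 and 0.51, a mean of 0.04 ± 0.58 (95% interval -0.57 to 0.66). Sample 1 was low and the others were above the pool, so the mean near 0 hides a spread of more than 1 log2 unit. Skeletal muscle, a main site of Ucp3 expression, had the marker medians given above, lowest in sample 3, and its part in the Ucp3 reading was not tested.

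The Ucp3 and Ucp2 genes run in the same direction with 6904 bases between them in GRCm38.p6. The 250 bases before the RefSeq start of Ucp3, chr7:100472741-100472990 on the plus strand, are shown because this window held more copies of a nuclear receptor half-site, the kind of element PPAR and related receptors bind, than the upstream windows of the other members; AGGTCA is in capitals, and a match is a description of letters, not a bound site.
Ucp3 upstream: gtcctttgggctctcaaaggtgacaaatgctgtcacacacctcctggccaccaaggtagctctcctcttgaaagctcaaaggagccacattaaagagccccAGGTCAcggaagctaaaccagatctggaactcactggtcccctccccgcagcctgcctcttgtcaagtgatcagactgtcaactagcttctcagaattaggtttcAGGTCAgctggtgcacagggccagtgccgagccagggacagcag
RefSeq start windows of 300 bases (250 before and 50 after the start) matched 27 of the 33 members. AGGTCA, searched on both strands, was in windows of 6 of these 27 (22.2%): Acadm, Acadvl, Cpt1a, Echs1, Ucp1 and Ucp3. It was in 18.1% of 27025 genes, so the members were near the share of all genes. The longer TCAAGGTCA, which contains AGGTCA, was in 0 of 27 members and 0.466% of all genes. TATAAA was in 1 of 27 members (Dio2, 3.70%) and in 15.7% of all genes.

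Among the members, the brown fat genes were the most variable role group, with a median SD over arrays of 0.71 across 9 fitted probes. It was 0.14 over all probes, which were not matched to them for signal. Dio2, the deiodinase that makes active thyroid hormone inside brown fat cells, read -1.12, 0.39 and 0.64, a mean of -0.03 ± 0.95 (95% interval -1.02 to 0.96). Its Cy5 signal was 6908 in sample 1 against 25810 and 22900 in the others, while the pool gave 5692, 7512 and 5227. Elovl3, a fatty acid elongase induced in brown fat by cold, was instead high in sample 2 only, at -0.18, 1.01 and -0.47. Otop1 read 0.10, 0.44 and -0.17, and the fitted probe of Zic1, a transcription factor marking classical brown fat, read 0.30, -0.13 and 0.08 at signals close to background.

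Prdm16, the transcriptional coregulator that sets brown fat identity, had the widest range of any member. It read -0.25, -2.95 and 0.15, a mean of -1.02 ± 1.69 (limma unadjusted p = 0.188). Sample 2 alone was low: its Cy5 signal was 684 against 4445 and 5819, while the pool read 2068, 2158 and 1906 on the same arrays. Without sample 2 the mean was -0.05. The cardiac and liver lists also stood apart in that sample, but above their values in samples 1 and 3. The smooth muscle list was lowest in sample 2, with medians of -0.35, -1.22 and -0.61. Whether any of these lists is related was not tested. The first 30 of the 60 bases of the probe behind this reading, as the deposited files give them, are the following.
Prdm16 probe: gcaactgcatggtatgaaagaggaaatcgg

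Gyk, the glycerol kinase gene now named Gk, lets brown fat cells reuse glycerol for triglyceride. It had 4 fitted probes on chromosome X, and they disagreed. The probe at chrX:81153701-81153760 read 0.08, 1.77 and 1.88, a mean of 1.24 ± 1.01 (limma unadjusted p = 0.0292, adjusted p = 0.245), near 0 in sample 1 and high in both others. The other 3 read between -0.85 and -0.34 in sample 1, between 0.12 and 0.44 in sample 2 and between -0.04 and 0.33 in sample 3, with means from -0.09 to 0.05. Thus all 4 were lowest in sample 1, but only the first was far above the pool elsewhere. The deposited description ties that probe to a neonate thymus cDNA whose product it calls unclassifiable. A Ppargc1b probe tied to another such thymus cDNA read -0.12, -0.16 and -0.09. The readings of the Gyk probe at chrX:81153701-81153760 lay beside those of the lymphocyte markers. Of 14 lymphocyte probes, 10 were above 0 on all 3 arrays (25.6% of all probes tested were). At an unadjusted limma p under 0.05, 8 were higher (8.95% of all probes tested were). Cd3d read 0.39, 2.32 and 2.66 and Lck read 0.31, 2.28 and 2.66. The part of lymphocyte RNA in the Gyk reading was not tested. The first 30 bases of this probe and of the brightest other one, at chrX:81090662-81090721, show that they detect different sequence.
Gyk probe, high in samples 2 and 3: aggtatcttactgtataactaaccttaggt
Gyk probe, brightest of the others: tgtctattgaaatgtgccattcagtatatt

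**Figure D3:**
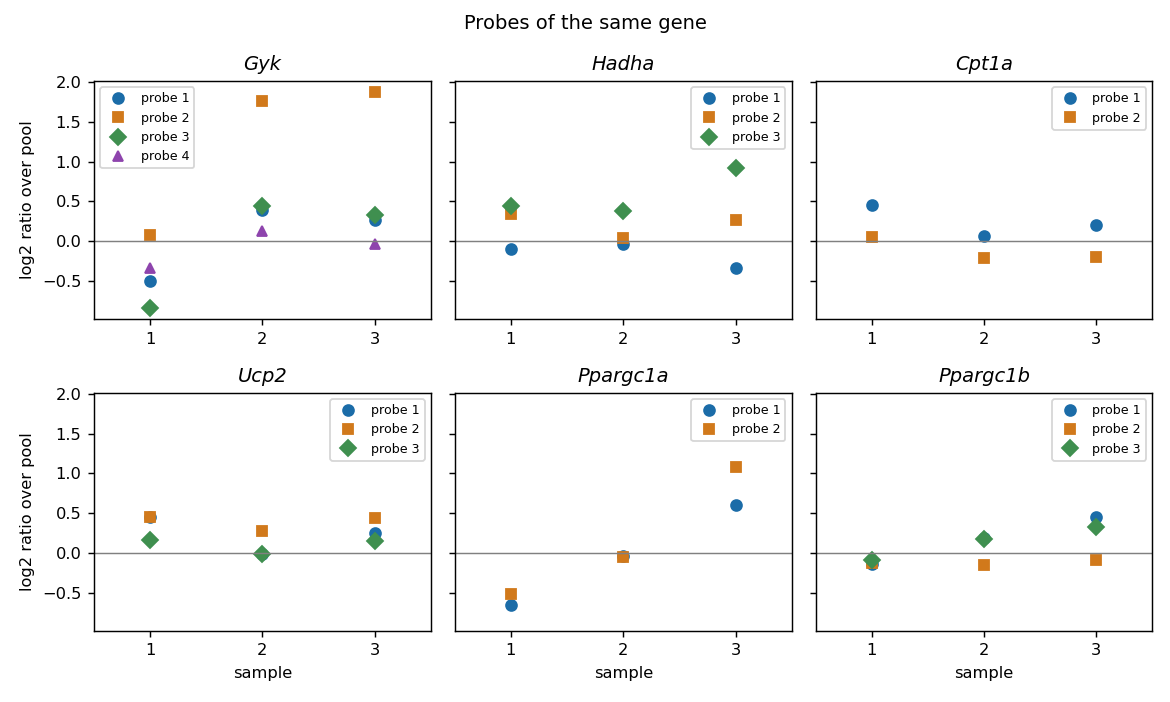
Log2 ratio over the pool (y axis) in samples 1, 2 and 3 (x axis) for the fitted probes of Gyk, Hadha, Cpt1a, Ucp2, Ppargc1a and Ppargc1b; each marker shape is a probe. The second Gyk probe, at 1.77 and 1.88, and the third Hadha probe, at 0.92 in sample 3, lie apart from the other probes of their gene, while both Ppargc1a probes follow the same order of samples.

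Of the transcriptional regulators, Ppargc1a varied most. PGC-1alpha is the cold-inducible coactivator of mitochondrial biogenesis and of Ucp1. Its probe at chr5:50830839-50830898 read -0.66, -0.04 and 0.60 (mean -0.03 ± 0.63; 0.39 with median centring), and that at chr5:50828808-50828867 read -0.52, -0.05 and 1.08 (0.17 ± 0.82). Both put sample 1 lowest, sample 2 near the pool and sample 3 highest, so the order of samples was shared by both probes although the mean was near 0. Ppargc1b, the related coactivator PGC-1beta, had means of 0.17 ± 0.30, -0.12 ± 0.03 and 0.13 ± 0.21 on its 3 probes. Ppara, the fatty acid receptor that drives oxidation genes, read 0.30, -0.51 and 0.10 (mean -0.04 ± 0.42, 95% interval -0.51 to 0.43; 0.42 with median centring). Its lowest sample was sample 2.

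Activation and entry into mitochondria were the steps best covered by readable probes. Acsl1, the main long-chain acyl-CoA synthetase of fat and heart, read -0.44, 0.32 and 0.29 on one readable probe and -0.27, 0.32 and 0.40 on the other. Cpt1b read -0.42, 0.25 and 0.15 on the probe without saturation (mean -0.01 ± 0.36, 95% interval -0.42 to 0.40; 0.47 with median centring). For both genes sample 1 was below the pool and the others above it. Cpt1a, the liver form that is also expressed in most other tissues, had its highest value in sample 1 instead. Its brighter probe, at chr19:3280180-3280239, read 0.46, 0.06 and 0.21 (mean 0.24 ± 0.20, 95% interval -0.03 to 0.51), and the dimmer one read 0.06, -0.21 and -0.20 (mean -0.12 ± 0.15). The 2 probes gave means of opposite sign, and neither had an unadjusted p under 0.05 (0.0671 and 0.245, limma; adjusted p = 0.308 and 0.508).

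In the oxidation cycle itself, 2 genes had a readable probe: Acads and Hadha. Acads, the short-chain dehydrogenase, read -0.30, -0.0010 and -0.17, a mean of -0.16 ± 0.15. Hadha, the alpha subunit of the trifunctional protein, carries the hydratase and dehydrogenase activities for long chains and had 3 fitted probes on chromosome 5, on the minus strand. The brightest, at chr5:29152587-29152646, read -0.10, -0.03 and -0.34 (mean -0.16 ± 0.16). The probe at chr5:29180176-29180235 read 0.34, 0.04 and 0.27 (0.21 ± 0.16), with Cy3 signals of 108 to 110. The third, at chr5:29187010-29187069, read 0.44, 0.38 and 0.92 (0.58 ± 0.29, limma unadjusted p = 0.00869, adjusted p = 0.213). The groups of values from this probe and the brightest one do not overlap, so the direction read for Hadha was set by the probe. Cy3 signals were 481 to 501 on the third probe and 5613 to 6591 on the brightest. The deposited descriptions tie the brightest to the Hadha mRNA and the third to an embryo cDNA named for Hadha. The remaining probe is tied to a urinary bladder cDNA called unclassifiable. The first 30 bases of each of the 3 probes show the different stretches read.
Hadha probe, lower: ggaagcaggaaaaagaccaaggctagcctt
Hadha probe, dimmest: atttctaccaactacagttatgagtcgtat
Hadha probe, higher: cccaaatctgtaagggcaaatgtaacttca

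Hadha and Hadhb encode the 2 subunits of 1 enzyme from opposite strands, with 272 bases between their RefSeq start sites in GRCm38.p6. The upstream windows of both share the 228 bases chr5:30155003-30155230, with 57.0% G and C, shown on the plus strand because one gene read from it was measurable here and its partner stood at the scanner limit. None of the motifs above was found in it.
Hadha-Hadhb shared window: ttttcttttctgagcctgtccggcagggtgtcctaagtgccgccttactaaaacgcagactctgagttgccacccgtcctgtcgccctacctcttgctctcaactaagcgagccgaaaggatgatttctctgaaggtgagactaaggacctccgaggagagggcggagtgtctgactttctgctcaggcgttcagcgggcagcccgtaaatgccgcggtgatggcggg

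The accessory enzymes were mixed as well. Decr1, the dienoyl-CoA reductase needed for unsaturated chains, read 0.26, 0.42 and -0.08 on one probe and 0.17, 0.30 and -0.36 on the other, sample 3 being the lowest on both. Acot2, a mitochondrial acyl-CoA thioesterase, read -0.26, 0.31 and -0.05. Etfdh, which passes the electrons of the flavoprotein to ubiquinone, had a second probe that read 0.23 and -0.16 in samples 2 and 3; the spot of sample 1 carried an outlier mark and was left out.

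As a group, the 19 thermogenic probes had medians of -0.14, 0.17 and 0.26 in samples 1, 2 and 3, and the 13 fatty acid oxidation probes had -0.02, 0.25 and -0.05. Over all probes tested the medians were 0.03, 0.01 and 0.03. The mean of the 3 medians was 0.10 ± 0.21 for the thermogenic probes and 0.06 ± 0.16 for the oxidation probes (SD, n = 3), within the spread between samples; with median centring they were 0.38 and 0.40, where the median of all probes was 0.18. Member probes varied more between samples than probes at large, though this was not tested. The median SD over arrays was 0.30 for member probes and 0.14 for all probes. These probes were not matched for signal, and the median Cy3 signal of all probe spots was only 163, 165 and 156 in samples 1, 2 and 3. The wider spread was not particular to the members. The median SD was 0.24 for white fat, 0.21 for other fatty acid oxidation and 0.20 for other thermogenic probes. It was 1.27 for skeletal muscle, 1.23 for cardiac and 0.98 for lymphocyte probes, but 0.11 for endothelial probes. Sample 1 was the lowest on 15 of 31 member probes with 3 values (48.4%), against 32.5% of all probes. Related lists, described below, had similar shares: 54.35% for other fatty acid oxidation genes and 48.4% for the PPAR pathway and its targets. The share was 36.8% for other thermogenic genes and 13.3% for endothelial markers. Among the members, the lowest values in sample 1 belonged to Dio2, Gyk, Ppargc1a and Ucp3, whereas Ucp2 and Cpt1a were highest there. The number of member probes at an unadjusted limma p under 0.05 was 10 (31.2%), all higher, without sample 1, and 3 (9.68%) without sample 2 or without sample 3. The shares of all probes, in both directions together, were 17.0%, 7.80% and 13.5%, and 0 member probes passed adjustment in any of these fits. Sample 1 had been seen to be low before it was left out, so the first of these counts is a description. White fat probes without saturation, 11 in all, had medians of -0.15, 0.16 and -0.10, and 8 of them were lowest in sample 1. Lymphocyte probes were lowest in sample 1 on 13 of 14. The part of fat or lymphocyte content in the members' readings was not tested.

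**Figure D4:**
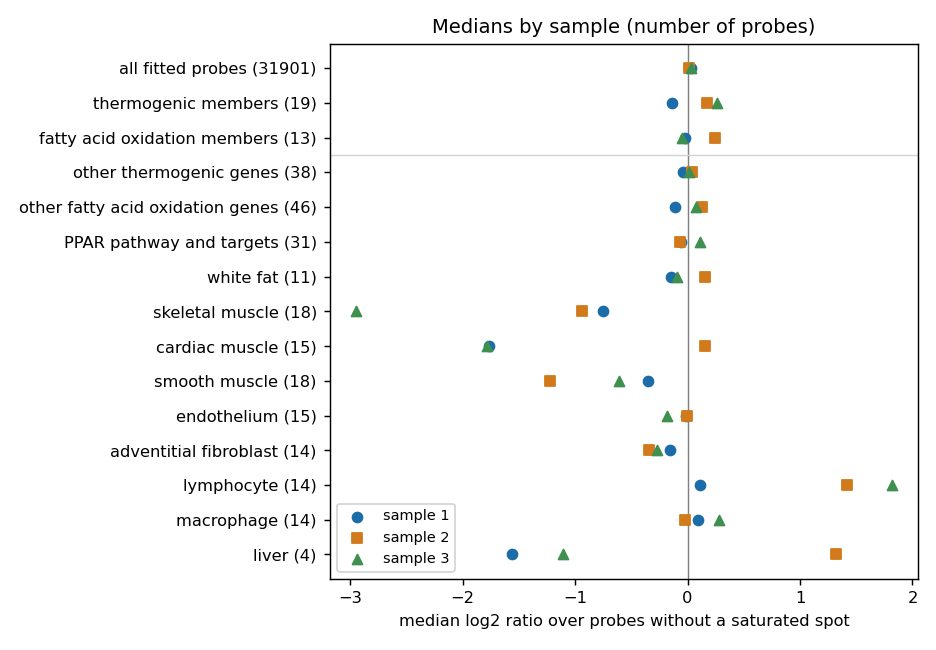
Median log2 ratio over the pool (x axis) of each gene list (y axis, with its number of probes without a saturated spot) in the 3 samples, shown as coloured points. The thermogenic and fatty acid oxidation members lie between -0.14 and 0.26, close to the other metabolic lists, while the skeletal muscle, cardiac, smooth muscle, lymphocyte and liver lists range from -2.95 to 1.82.

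Further genes of the same pathways also gave no adjusted call. The counts below are at an unadjusted limma p under 0.05, where 8.95% of all probes tested were higher and 8.91% lower. Among 26 other thermogenic genes, 5 of 44 probes were saturated, and of 38 fitted probes 1 was higher and 5 lower. Thrb, a thyroid hormone receptor, read -1.01, -1.33 and -0.31 (mean -0.88 ± 0.52, limma adjusted p = 0.215) on 1 of 4 fitted probes. A second Thrb probe, also at an unadjusted p under 0.05, read -0.22, -0.35 and -0.25, and the others lay between -0.29 and 0.20. Sln encodes sarcolipin, which uncouples the calcium pump of muscle, and read -1.59, -0.62 and -3.58 on one probe, lowest in the sample where the skeletal muscle list was lowest; the part of muscle content was not tested. Its other probe, dim in Cy3, read -0.05, 0.01 and -0.29. Slc25a14, a mitochondrial carrier related to the uncoupling proteins, read 0.19, 0.16 and 0.19 on a probe that was well above background in Cy3 on 0 of 3 arrays, and 0.58, 0.21 and 0.04 on a brighter one. Ntrk3 had a mean of -0.31 ± 0.23. Among 38 other fatty acid oxidation genes, 10 of 56 probes were saturated. The 46 fitted probes were of 32 genes, and of these probes 1 was higher and 1 lower. The higher was a probe of Acsl6, an acyl-CoA synthetase (0.52 ± 0.33), and the lower one of Acsl3, another (-0.20 ± 0.08). Other Acsl6 probes read between -0.02 and 0.73. Cpt1c and Acsl4, the next by p, had means of -0.23 ± 0.16 and 0.20 ± 0.11. A further Cpt1c probe read 0.33, -0.20 and -0.20, and a further Acsl4 probe read 0.06, 0.26 and -0.06. Of 31 fitted probes of the PPAR pathway and its targets, 1 was higher and 1 lower: Ncor1, a corepressor of nuclear receptors, at 0.27 ± 0.01 on 1 of 7 fitted probes, and Prkaa2, a catalytic subunit of AMP-activated kinase, at -0.35 ± 0.29. The other 6 Ncor1 probes read between -0.24 and 0.18, on both sides of 0. The medians of these 3 lists lay between -0.11 and 0.13 in every sample.

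Probes of smooth muscle, skeletal muscle and adventitial markers read lower than the pool more often than probes at large. Of all probes tested, 8.91% were lower at an unadjusted limma p under 0.05. Smooth muscle probes were lower at that p on 16 of 18, with medians of -0.35, -1.22 and -0.61, and skeletal muscle probes on 16 of 18. Adventitial fibroblast probes were lower on 8 of 14, cardiac probes on 3 of 15 and endothelial probes on 1 of 15. The cardiac median was above 0 in sample 2, at 0.15. None of these probes passed adjustment. Myh11, the smooth muscle myosin, read -0.94, -1.94 and -1.05. Many of the members are expressed in muscle too, and the part of muscle content in their readings was not tested.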

How the data were processed

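Per the file headers, spot intensity was extracted with Agilent Feature Extraction 9.5.3.1, and the deposited mean signals used here are raw. The scanner software also gives a log10 ratio of its processed Cy5 and Cy3 signals, per the file headers, and the authors' series values are log2 ratios whose centring is not stated; both served as alternatives. Mean signals were corrected with normexp (offset 50) and normalized by loess within each array, control spots having weight 0 (limma 3.58.1, R 4.3.3, with the data.table package at version 1.17.8). Outlier spots were dropped and spots of 1 probe averaged. A probe entered the test if either dye was well above background on 2 or 3 arrays and no spot was saturated. Each of these 31901 probes was tested two-sided against a ratio of 0 (lmFit, eBayes), and p-values were adjusted over all of them by the Benjamini-Hochberg method. Names were updated through RefSeq's GRCm38.p6 listing: 22951 probes matched an accession, 3109 a synonym, 6659 needed no change, and 8455 matched nothing and stayed as filed. Probe positions are those filed, in mm7, and exons and UTRs were not analysed here. Promoters are RefSeq's, in GRCm38.p6. Every member was described. Values by sample were required for members with an unadjusted p under 0.05 and for Ucp1, Ucp2, Ucp3, Cpt1a, Cpt1b, Ppara, Ppargc1a and Prdm16, and up to 4 genes of each other list were taken by smallest p. The members and lists were chosen with earlier results of these data known. Simulated ratios, drawn from the test's own variance model, checked the code only and say nothing about false calls in these data. The labels call the samples biological replicates.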

Additional observations from a re-analysis of the deposited data

How the results depend on the processing

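No paired analysis was possible because the labels hold 1 numbered group, set against 1 shared pool. The count of called member probes was 0, and it was 12 with saturated probes kept (all saturated and lower). With the brightest probe per gene, saturated ones included, it was 12 (again all saturated and lower). With median centring it was 13. It was 0 under the other alternatives run, including without each replicate. The fatty acid oxidation median (0.06) was -0.19 with saturated probes kept, -0.55 with the brightest probe per gene and 0.40 with median centring, and 0.01 to 0.13 without 1 replicate. The medians of the saturated-kept and brightest-probe settings include saturated probes, which have no measured ratio. The thermogenic median (0.10) was 0.0142 with saturated probes kept, -0.11 with the brightest probe per gene, 0.38 with median centring and 0.01 to 0.22 without 1 replicate. With median centring, the brightest Ucp2 probe (0.57), the high Gyk probe (1.58), the brighter Cpt1a probe (0.65) and the higher Hadha probe (0.92) passed adjustment. The downstream Ucp2 probe was 0.15 there and 0.62 with offset 10 and 0.66 with the Agilent log ratio or the series values. Alternatives were run for the 13 probes that the naming rule took from Ucp2, Ucp3, Prdm16, Gyk, Ppara, Ppargc1a, Cpt1a, Cpt1b and Hadha, not for the other members given by sample; of these 13, 8 kept their sign under every alternative that gave a value. Signs turned with median centring for Ppara (0.42), Ppargc1a (0.39) and Cpt1b (0.47). Cpt1b also turned with offset 10 (0.0031), array weights (0.11) and scale normalization (0.0074), and Ppargc1a with the deposited log ratio and series values (0.0145). All these means began near 0. Leaving out 1 replicate gave -0.19 to 0.37 for Ucp3, -0.21 to 0.20 for Ppara, -0.35 to 0.28 and -0.28 to 0.51 for the Ppargc1a probes, -0.14 to 0.20 for Cpt1b, and 0.13 to 0.33 and -0.20 to -0.07 for the Cpt1a probes, -1.60 to -0.05 for Prdm16 and 0.93 to 1.83 for the high Gyk probe. The probe-per-gene alternative gave no value for probes it did not choose. Loess with saturated spots at weight 0, chosen after seeing the data, changed no call. The thermogenic median without the high Gyk probe and Prdm16, also chosen after seeing the data, stayed at 0.10. It could not change, because in every sample the Gyk probe lay above the median and Prdm16 below it. The dim Ucp2, Hadha, Zic1, Sln and Slc25a14 probes are limited by signal near background.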
